A study of Mus musculus with 24 samples.

Results

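Neutrophil granule and maturation genes were followed in mice that carry an induced allele of Ednra, the gene of the type A endothelin receptor. The set holds 10 genes, found by gene symbol in the probe annotation, with 14 probes among the 25697 probes (16593 named genes) of the array. The early genes are Elane, Mpo and Ms4a3. The late genes are Ltf, Camp, Ngp, Lcn2, S100a8, S100a9 and Retnlg. Elane, Camp, Ngp, Lcn2, S100a8, S100a9 and Retnlg have 1 probe each, Ms4a3 and Ltf have 2, and Mpo has 3.

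RNA came from male C3HeB/FeJ mice aged 117 days, either heterozygous for the allele, which is named y129F in the study's title and arose by ENU (a chemical mutagen), or wild-type. Each genotype has 4 arrays in bone, 4 in white adipose tissue (white fat) and 4 in heart. Homozygotes, which the title names, were not analysed here. The allele is inherited, so every cell of a heterozygous mouse carries it, and whole tissues were taken, so a transcript level does not say which cell made it. Hearts came from 8 mice of their own, while bone and white fat came from shared mice under 7 mouse numbers. In both of these tissues 1 mouse number stands under heterozygous array 4 and also under wild-type array 3. No probe was paired with Ednra, so the genotype labels could not be checked on its transcript.

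Neutrophils fill their granules in the order in which they mature in the marrow. Promyelocytes make the proteins of the primary (azurophil) granules, among them neutrophil elastase (Elane) and myeloperoxidase (Mpo), and the membrane protein gene Ms4a3 marks granulocyte and monocyte progenitors of about that stage. Later stages make the proteins of the secondary (specific) granules, such as lactoferrin (Ltf), the antimicrobial peptide cathelicidin (Camp), neutrophilic granule protein (Ngp) and the iron-siderophore binding protein lipocalin 2 (Lcn2). S100a8 and S100a9 encode both chains of calprotectin, an abundant cytosolic protein of neutrophils, and Retnlg encodes a resistin-like secreted protein of mature mouse neutrophils. The transcription factors C/EBP epsilon and C/EBP alpha, PU.1 and the RUNX proteins are known regulators of this series of steps.

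Promoters of 6 of the genes are shown because these are the genes on which the bone comparison turns: the early genes, and Ngp and Retnlg, which had higher means in heterozygous bone, beside Ltf, which differed little. Each line gives 250 bases up to the annotated start, 5′ to 3′ on the gene's strand, from RefSeq on GRCm38.p6. Capitals mark the letters of a C/EBP motif (TTNNGNAA), a PU.1 motif (GAGGAA) or a RUNX motif (TGTGGT) on either strand. The windows are chr10:79886062-79886311 on the plus strand for Elane, chr11:87793534-87793783 (plus) for Mpo and chr19:11640852-11641101 (minus) for Ms4a3. Those of the late genes are chr9:110419558-110419807 (plus) for Ngp, chr16:48872358-48872607 (plus) for Retnlg and chr9:111019042-111019291 (plus) for Ltf.
Elane: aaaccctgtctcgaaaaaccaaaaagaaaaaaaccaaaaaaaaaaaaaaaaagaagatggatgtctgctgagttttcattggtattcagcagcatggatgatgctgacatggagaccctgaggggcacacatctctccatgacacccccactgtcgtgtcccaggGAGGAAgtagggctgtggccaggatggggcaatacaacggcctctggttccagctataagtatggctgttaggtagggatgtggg
Mpo: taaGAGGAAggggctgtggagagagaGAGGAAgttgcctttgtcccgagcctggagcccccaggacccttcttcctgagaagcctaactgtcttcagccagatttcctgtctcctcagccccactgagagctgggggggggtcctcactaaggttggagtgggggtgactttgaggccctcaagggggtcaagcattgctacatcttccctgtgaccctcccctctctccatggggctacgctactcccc
Ms4a3: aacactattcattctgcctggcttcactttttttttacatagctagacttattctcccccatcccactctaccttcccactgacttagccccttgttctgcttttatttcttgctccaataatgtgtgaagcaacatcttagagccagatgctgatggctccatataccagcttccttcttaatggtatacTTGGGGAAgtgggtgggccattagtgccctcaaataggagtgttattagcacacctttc
Ngp: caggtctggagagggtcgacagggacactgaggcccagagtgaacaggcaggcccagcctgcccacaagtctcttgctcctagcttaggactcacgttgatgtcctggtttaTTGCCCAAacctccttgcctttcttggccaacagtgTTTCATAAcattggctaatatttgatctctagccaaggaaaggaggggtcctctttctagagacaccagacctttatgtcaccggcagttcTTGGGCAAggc
Retnlg: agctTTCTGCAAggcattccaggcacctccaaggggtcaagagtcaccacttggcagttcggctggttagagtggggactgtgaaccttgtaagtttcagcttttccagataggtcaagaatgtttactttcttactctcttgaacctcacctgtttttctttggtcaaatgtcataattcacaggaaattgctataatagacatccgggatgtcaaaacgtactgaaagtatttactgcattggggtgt
Ltf: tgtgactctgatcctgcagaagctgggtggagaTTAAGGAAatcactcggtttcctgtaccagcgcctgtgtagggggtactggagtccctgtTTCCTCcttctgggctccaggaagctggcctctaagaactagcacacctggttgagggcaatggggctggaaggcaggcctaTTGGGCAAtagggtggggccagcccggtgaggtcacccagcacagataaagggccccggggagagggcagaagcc

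The C/EBP letters were found in 7 of the 10 promoters, against 36.9% of all 32851 promoters read in the same way. Those 7 are Ms4a3 among the early genes and Ltf, Ngp, Lcn2, S100a8, S100a9 and Retnlg among the late ones. Ngp held 3 matches, of which the nearest lies 11 to 4 bases before the start. The PU.1 letters were found in Elane, Mpo, Ltf, Lcn2 and S100a8, which is 5 of 10 against 23.3% of all promoters. The RUNX letters were found in S100a9, 1 of 10 against 14.1%. These are matches of letters in a short window, and they do not show binding.

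All 14 probes were detected on all 8 bone arrays, where detected means a deposited detection p-value under 0.05. With the 24 arrays normalized together, each of the 10 genes had its highest mean level in bone. Mpo averaged 14.2 ± 0.0819 on the log2 scale in bone, against 5.12 ± 1.49 in white fat and 4.60 ± 0.117 in heart (SD, n = 8 each). It was detected on 8, 1 and 0 arrays of those tissues. The corresponding mean levels of Lcn2 were 14.2 ± 0.357 in bone, 11.0 ± 0.863 in white fat and 7.23 ± 0.807 in heart, with detection on all 24 arrays. S100a8 was also detected on all 24 arrays and lay in the same order of tissues, at 14.5 ± 0.0569, 9.61 ± 1.60 and 7.76 ± 1.29. For S100a9 the means were 14.2 ± 0.0524 in bone, 6.04 ± 2.32 in white fat and 7.02 ± 1.16 in heart, and the levels of white fat and heart overlap. The labels call the tissue bone. On these arrays it held the osteoblast gene Bglap2 at 13.9 to 14.3 and the skeletal muscle creatine kinase gene Ckm at 12.8 to 13.5, while the osteocyte gene Dmp1 was detected on 2 of 8 arrays.

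In bone, early genes had higher means in heterozygous than in wild-type mice for Ms4a3 and Elane, but none of the 10 genes passed the test. Late genes were split: Retnlg, Lcn2 and Ngp had higher means in heterozygous bone by 0.36 to 0.57 on the log2 scale, while Ltf, Camp, S100a8 and S100a9 differed by less than 0.1. The test was limma's moderated test with Benjamini-Hochberg adjustment over all 9460 measured genes, with an adjusted p under 0.05 as threshold. It called 0 of the 10 genes, where 0.074% of all genes were called. In whole tissue, more cells of a type and more RNA per cell cannot be told apart.

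Ms4a3 levels were 11.60, 11.83, 11.57 and 11.40 in heterozygous bone (arrays 1 to 4), against 10.61, 10.41, 11.29 and 11.00 in wild-type bone. The groups did not overlap, and wild-type array 3 came closest to the heterozygous arrays. The log2 change was 0.77 (SE 0.159, adjusted p = 0.0679 in limma), a 1.71-fold higher mean, with a 95% interval of 0.43 to 1.12. A dimmer Ms4a3 probe had levels of 8.91, 9.11, 8.58 and 8.13 in heterozygous bone, against 8.34, 8.26, 8.29 and 8.47 in wild-type bone. On that probe the groups overlapped, with heterozygous array 4 the lowest of all 8 (log2 change 0.35, adjusted p = 0.287 in limma over all 13709 kept probes).

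Elane levels were 13.40, 13.41, 13.42 and 13.14 in heterozygous bone, against 12.95, 12.37, 13.29 and 12.89 in wild-type bone. Heterozygous arrays 1 to 3 were the highest of the 8, and wild-type array 3 was above heterozygous array 4. The log2 change of Elane was 0.46 (SE 0.148, adjusted p = 0.127 in limma).

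The 3 probes of Mpo did not give the same answer. The brightest, which stands for the gene, had levels of 14.39, 14.36, 14.21 and 14.19 in heterozygous bone, against 14.40, 14.18, 14.29 and 14.45 in wild-type bone. The groups overlapped throughout (log2 change -0.04, SE 0.0761, adjusted p = 0.819 in limma). A probe of middle brightness had levels of 12.50, 12.50, 12.37 and 12.40 in heterozygous bone, against 12.08, 11.98, 12.21 and 12.16 in wild-type bone. The dimmest had levels of 11.66, 11.56, 11.48 and 11.24 in heterozygous bone, against 10.46, 10.08, 11.21 and 10.43 in wild-type bone. On both of these probes the groups did not overlap. Their log2 changes were 0.34 (SE 0.0712, adjusted p = 0.0635) and 0.94 (SE 0.183, adjusted p = 0.0597 in limma over all kept probes).

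Brightness differed between the Mpo probes as well. The brightest probe's raw intensity was 47.8% to 67.2% of the highest intensity on its array, the middle one's 12.0% to 18.3% and the dimmest one's 3.65% to 10.2%. The bright probe of Ltf, at 80.2% to 90.6% of the array's highest intensity, changed by 0.04, and its dim probe by 0.22 (SE 0.118, adjusted p = 0.338 in limma). For Ms4a3 the order was the reverse: its brighter probe changed by 0.77 and its dimmer one by 0.35. The log2 change was 0.36 for Ngp, at 42.9% to 80.5% of the array's highest intensity, and 0.49 for Lcn2, at 31.7% to 76.5%. The main probes of 7 of the 10 genes (Mpo, Ltf, Camp, Ngp, Lcn2, S100a8 and S100a9) belong to the 57 genes with a mean level of 14 or more in bone. Over those 57 genes the median size of the log2 change was 0.058, against 0.107 over 1572 genes at levels of 10 to 12. Whether high brightness limits the changes of these probes was not tested.

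**Figure D1:**
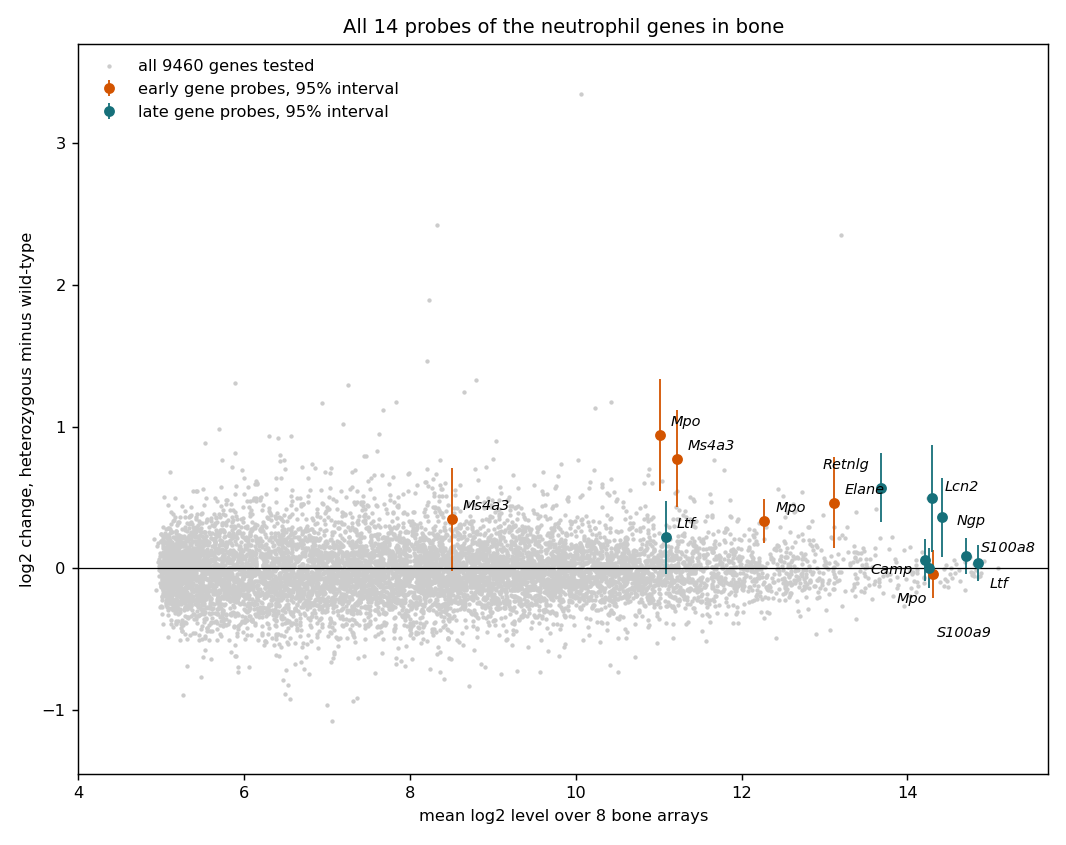
Mean log2 level over the 8 bone arrays (x axis) against log2 change, heterozygous minus wild-type (y axis), for the 14 probes of the neutrophil genes with 95% intervals and for all 9460 genes tested (grey). The brightest Mpo probe lies at -0.04, while its dimmer probes lie at 0.34 and 0.94.

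Among late genes, Retnlg had levels of 14.14, 14.04, 13.85 and 13.80 in heterozygous bone, against 13.46, 13.04, 13.57 and 13.49 in wild-type bone. The groups did not overlap. The log2 change of Retnlg was 0.57 (SE 0.112, adjusted p = 0.0679 in limma), or 1.48-fold, with a 95% interval of 0.33 to 0.81.

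Lcn2 levels were 14.61, 14.59, 14.45 and 14.51 in heterozygous bone, against 14.09, 13.37, 14.50 and 14.23 in wild-type bone. Ngp levels were 14.74, 14.68, 14.54 and 14.43 in heterozygous bone, against 14.17, 13.84, 14.59 and 14.35 in wild-type bone. For both genes wild-type array 2 was the lowest of the 8 arrays and wild-type array 3 lay inside the heterozygous range. The log2 change was 0.49 for Lcn2 (SE 0.175, adjusted p = 0.159) and 0.36 for Ngp (SE 0.130, adjusted p = 0.165, both limma).

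The calprotectin chain S100a8 had levels of 14.84, 14.72, 14.74 and 14.72 in heterozygous bone, against 14.70, 14.68, 14.67 and 14.62 in wild-type bone. The groups did not overlap, by a small margin (log2 change 0.09, adjusted p = 0.431 in limma). Its partner S100a9 lay between 14.20 and 14.36 in heterozygous bone and between 14.17 and 14.32 in wild-type bone, which overlap (log2 change 0.00). The bright probe of Ltf lay between 14.82 and 14.95 in heterozygous bone and between 14.81 and 14.86 in wild-type bone. Camp lay between 14.21 and 14.29 in heterozygous bone and between 14.04 and 14.27 in wild-type bone (log2 change 0.06). The signs of Mpo, Ltf, S100a8 and S100a9 turn under other scalings or with other arrays, so none of these 4 has a settled direction.

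Counted together, 9 of 10 genes had a log2 change above 0, where 43.8% of all genes did, and 5 of 10 had an unadjusted p under 0.05 with the higher mean in heterozygous bone, against 8.07% of all genes. Groups did not overlap, with heterozygous arrays higher, for Ms4a3, Retnlg and S100a8, 3 of 10 against 4.31% of all genes. The median log2 change was 0.22, against -0.03 over all genes tested. With the mean of all probes of a gene, a setting chosen after seeing the data, the median of the 10 was 0.39. The genes share the same cells and arrays, so these counts are not independent of each other.

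**Figure D2:**
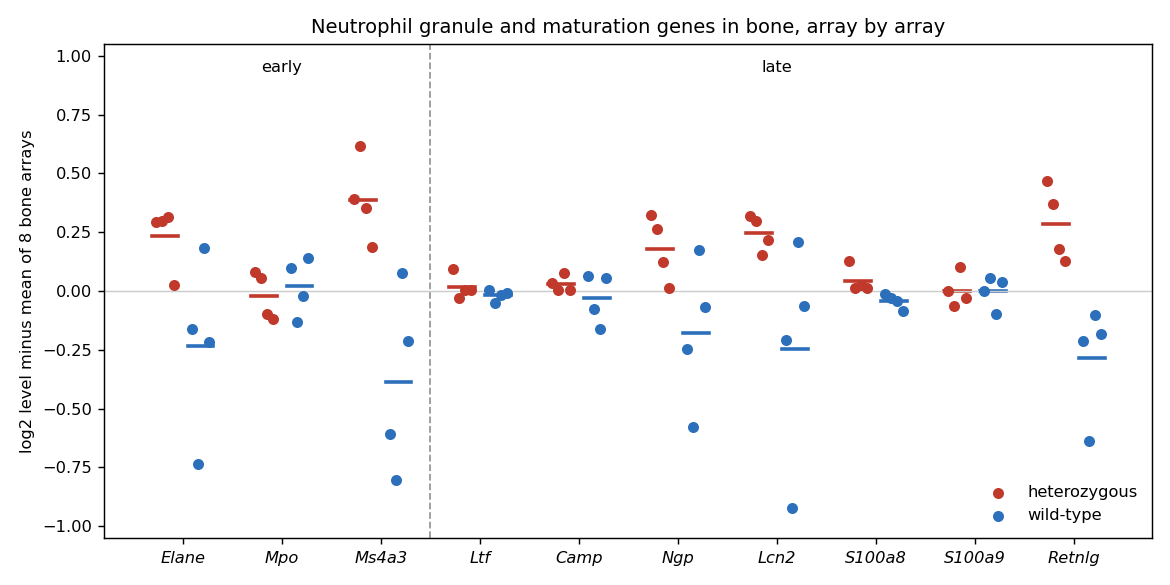
Log2 level of each gene on each bone array, minus the gene's mean over the 8 arrays (y axis), with heterozygous arrays in red left of wild-type arrays in blue and bars for group means. Points run from array 1 to array 4 in each group, and wild-type array 2 is the lowest point for 7 of the 10 genes.

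Early and late genes were then set against each other. The median log2 change was 0.46 for the 3 early genes and 0.09 for the 7 late genes, a difference of 0.38. Array by array, the mean level of early genes minus that of late genes was -1.41, -1.27, -1.37 and -1.49 in heterozygous bone, against -1.60, -1.70, -1.38 and -1.52 in wild-type bone. The groups overlap, since wild-type array 3 lies inside the heterozygous range, and averaged -1.38 ± 0.0911 in heterozygous and -1.55 ± 0.137 in wild-type bone (SD, n = 4 each). The difference of medians was 0.21 when wild-type array 2 was left out and 0.52 when array 3 was. The early median is the change of Elane. In place of the brightest Mpo probe, the dimmest (0.94) would raise that median, while the middle one (0.34) would not move it. The late median is the change of S100a8, a gene with a very bright probe, as given above. The array means also use only the brightest Mpo probe.

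For 7 of the 10 genes the SD was larger among wild-type than among heterozygous bone arrays, and for Ltf, S100a8 and S100a9 it was smaller. Wild-type array 2 had the lowest level of all 8 arrays for 7 of the 10 genes, wild-type array 3 for 2 and wild-type array 4 for 1. Heterozygous array 1 had the highest level for 5. Without wild-type array 2 the log2 change of Lcn2 was 0.26 (adjusted p = 0.295), of Ngp 0.23 (0.404), of Elane 0.30 (0.295), of Ms4a3 0.64 (0.209) and of Retnlg 0.46 (0.161, all limma).

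Wild-type array 3, whose mouse number stands also under a heterozygous array, was the wild-type array closest to the heterozygous ones in the means of the early and of the late genes. Without it 5 of the 10 genes passed the test as higher in heterozygous bone, where 4.46% of all genes did. They were Ms4a3 (log2 change 0.93, adjusted p = 0.0028), Retnlg (0.63, 0.00876), Elane (0.60, 0.0155), Ngp (0.48, 0.023) and Lcn2 (0.65, 0.026, all limma). With both arrays of the shared mouse number left out the same 5 passed, against 4.02% of all genes called higher. Without heterozygous array 4 alone, the other array of that number, 0 of the 10 genes and 0 of all 9385 genes passed. With any single array other than wild-type array 3 left out, 0 of the 10 passed. When arrays were weighted by their estimated quality Elane, Ms4a3 and Retnlg passed, against 2.92% of all genes called higher.

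Other genes of the neutrophil lineage were read from 4 lists that leave out the 10 genes, and no gene of them passed the test in bone. Over all genes tested in bone, 43.8% had a log2 change above 0. A share of 8.07% had an unadjusted p under 0.05 with the higher mean in heterozygous bone. In the azurophil granule list 9 of 12 genes were measured, and all 9 had a log2 change above 0, with a median of 0.47 and 7 at an unadjusted p under 0.05. The proteoglycan gene Srgn, which packs granule proteins, changed by 0.74 (SE 0.149) and Serpinb1a, an inhibitor of elastase and of its relatives, by 0.65 (SE 0.143, adjusted p = 0.0679 for both, limma). Nkg7, a granule membrane protein gene also used by natural killer cells, changed by 0.55 and the cystatin gene Cst7 by 0.47.

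In the specific and gelatinase granule list all 23 measured genes of 28 had a log2 change above 0 (median 0.34, 12 at an unadjusted p under 0.05). The shares over all genes were 43.8% above 0 and 8.07% at such a p with the higher mean in heterozygous bone. Cyba, for a subunit of the oxidase that makes superoxide, changed by 0.40 (SE 0.0824), the acute phase gene Orm1 by 0.77, the receptor gene Trem3 by 0.52 and the annexin gene Anxa1 by 0.68. In the mature neutrophil list 24 of 26 measured genes (of 30) had a change above 0, with a median of 0.36 and 16 at an unadjusted p under 0.05. The chemokine gene Ccl6 changed by 0.79 (SE 0.133, adjusted p = 0.0557 in limma), the histone deiminase gene Padi4 by 0.60, the oxidase subunit gene Ncf4 by 0.35 and the lectin receptor gene Clec4e by 0.68.

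Of 20 regulators of granulopoiesis 16 were measured, of which 11 had a change above 0, with a median of 0.10, where 43.8% of all genes had one. At an unadjusted p under 0.05, 3 were higher and 1 was lower in heterozygous bone. Over all genes 8.07% were higher at such a p. Csf2ra, for a chain of the GM-CSF receptor, changed by 0.35 (SE 0.0861, adjusted p = 0.0772) and Gfi1b, a transcriptional repressor needed to form red cells and platelets, by -0.41 (SE 0.111, adjusted p = 0.0917, both limma). Cebpe, for C/EBP epsilon, changed by 0.28 and Spi1, for PU.1, by 0.29, with adjusted p of 0.215 and 0.263.

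**Figure D3:**
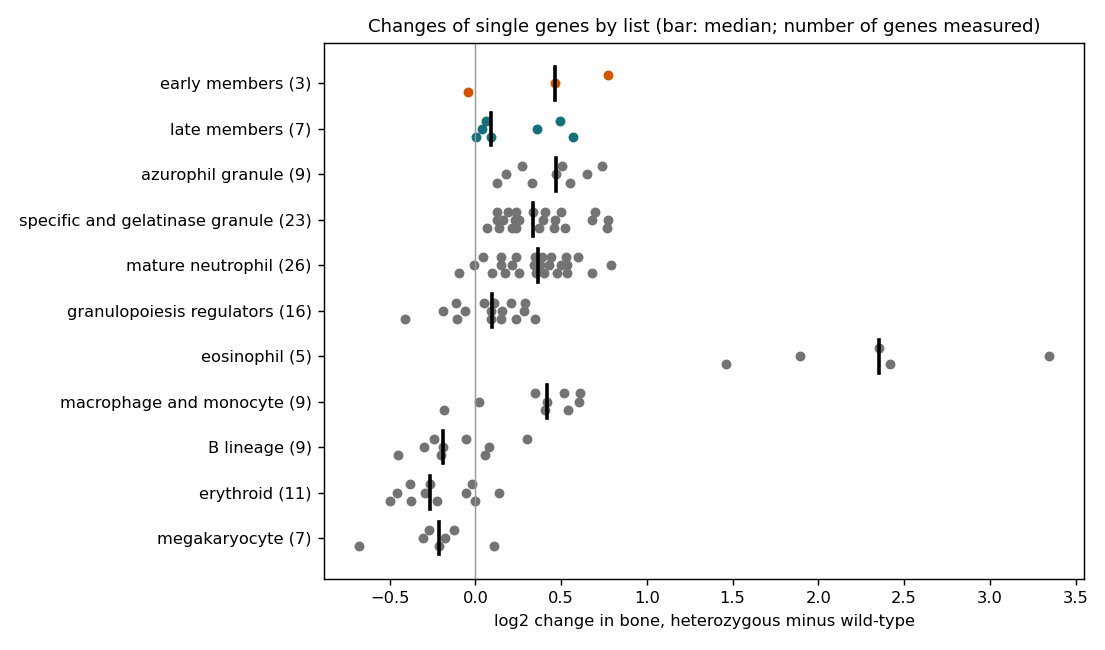
Log2 change in bone, heterozygous minus wild-type (x axis), of each measured gene of the early and late sets and of 9 other lists (rows), with a bar at each median and the number of measured genes in brackets. All 9 azurophil granule genes and all 23 specific and gelatinase granule genes lie above 0, where 43.8% of all genes do. The 5 eosinophil genes lie between 1.46 and 3.35.

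Marker lists of other marrow cells were read on the same arrays, and no gene of them passed the test in bone. The eosinophil list had 5 of 9 genes measured, with a median change of 2.35. All 5 had groups that did not overlap, with heterozygous arrays higher, against 4.31% of all genes. Its mean log2 level ran from 10.65 to 10.81 in heterozygous bone and was 9.94, 6.18, 10.06 and 7.63 on wild-type arrays 1 to 4. Wild-type arrays 2 and 4 were thus low, and wild-type array 2 was also low in the neutrophil genes. The macrophage and monocyte list, with 9 of 12 genes measured, averaged 9.86 to 10.04 in heterozygous and 9.25 to 9.89 in wild-type bone, which overlap (median change 0.42). In this list 8 of the 9 genes had a change above 0, where 43.8% of all genes did. At an unadjusted p under 0.05, 7 of the 9 were higher in heterozygous bone, against 8.07% of all genes. Higher means in heterozygous bone were thus not particular to neutrophil genes. The erythroid list, with 11 of 17 measured, averaged 11.12 to 11.40 in heterozygous and 11.42 to 11.61 in wild-type bone, which do not overlap (median change -0.26). Median changes were 0.32 in the T and NK cell list and 0.22 in the mast cell and basophil list. They were -0.19 in the B lineage list and -0.21 in the megakaryocyte list. Shares of cell types were not measured, and the part of any of these cells in the neutrophil result was not tested.

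Levels of the genes were also compared across the 8 bone arrays after each genotype's mean was subtracted. The arrays share 1 normalization and n is 8, so the correlations that follow are descriptions. Pairs of early genes had Pearson correlations of 0.42 to 0.85, pairs of late genes of -0.59 to 0.93 (median 0.06) and early with late pairs a median of 0.49. Genes closest to the mean of the late genes were Cst7 (r = 0.994), Reck (0.985), the ficolin gene Fcnb (0.985), the lipopolysaccharide receptor gene Tlr4 (0.985) and 1810055G02Rik (0.981). Levels entered that mean unscaled, so it mostly follows Lcn2, Ngp and Retnlg, with wild-type SDs of 0.24 to 0.48. For Ltf, Camp, S100a8 and S100a9 the wild-type SD was 0.02 to 0.11. S100a9 correlated with Lcn2, Ngp and Retnlg at -0.59 to -0.52. Closest to the mean of the early genes were Cytip (r = 0.994), Alg1 (0.986), the annexin gene Anxa3 (0.976), Ifitm2 (0.974) and the formyl peptide receptor gene Fpr2 (0.972). Of these 10, Ifitm2 changed by 0.48 (SE 0.106, adjusted p = 0.0679 in limma) and Alg1 by -0.01.

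In white fat 4 of the 10 genes were detected on 1 array only, and 3 were detected on all 8 arrays. Counting a gene by its main probe, 3, 10, 6 and 5 of the 10 genes were detected on heterozygous arrays 1 to 4, against 3, 4, 3 and 3 on wild-type arrays 1 to 4. Heterozygous array 2 held all 10 genes and 13 of their 14 probes. Mpo, Ms4a3, Ngp and Retnlg were detected there and on no other white fat array. Elane, Lcn2 and S100a8 were detected on all 8 white fat arrays, S100a9 on 4, Camp on 3 and Ltf on 2.

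Heterozygous array 2 had the highest white fat level for 9 of the 10 genes. Normalized within white fat, its log2 level was 9.28 for Mpo, 9.87 for Ngp, 8.78 for Retnlg, 10.69 for Ltf and 10.45 for Camp. On the other 7 arrays Mpo lay at 4.48 to 5.21, Ngp at 4.64 to 5.33 and Retnlg at 4.53 to 4.96. Lcn2 was the exception, with 12.18 on this array and 12.21 on wild-type array 4.

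**Figure D4:**
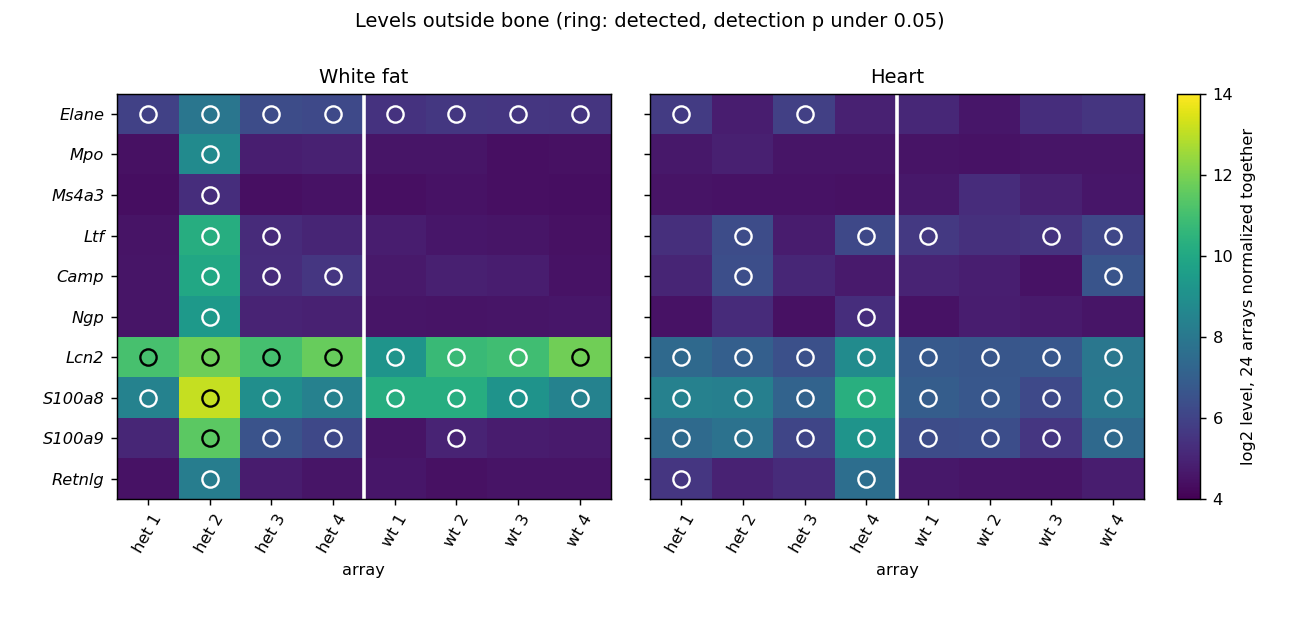
Log2 level (colour scale, 24 arrays normalized together) of the 10 genes (rows) on each white fat array (left) and heart array (right), heterozygous before wild-type, with a ring where the gene was detected. White fat heterozygous array 2 has a ring in all 10 rows, and no early gene has a ring on heart heterozygous array 4.

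Some genes of bone and muscle were also highest on the same white fat array. On the scale of all 24 arrays, Bglap2 was at 8.12 there and at most 4.61 on the other 7, the bone sialoprotein gene Ibsp was at 6.74 against at most 4.73, and Ckm at 7.64 against at most 4.72. The eosinophil granule gene Prg2 was at 9.13 there and at most 5.18 elsewhere in white fat. Other bone genes were not: Col1a1 was at 10.89 there against a median of 11.12 on the other 7, the osteoclast protease gene Ctsk at 8.83 against 9.06, and the osteoblast factor gene Sp7 was undetected on all 8. Of 452 probes seen on all bone arrays (detection p under 0.01) and undetected on the other 7 white fat arrays, 49 (10.8%) were seen on this one. For each of the other 7 white fat arrays the same count was 0 to 2.

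The bone array of the same mouse number, heterozygous array 2, gave a scale for these values. The level of a gene on white fat array 2 above the median of the other white fat arrays was taken as a percent of its level on that bone array, on the linear scale. The excess was 0.531% for Ms4a3, 1.80% for Elane and 2.10% for Mpo among early genes. Late genes had an excess of 1.68% for Retnlg, 2.76% for Ngp, 4.56% for Ltf, 5.42% for Camp and 6.49% for Lcn2. Both calprotectin genes stood above these, at 15.8% for S100a9 and 34.5% for S100a8.

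Genes of marker lists of bone, muscle and marrow cells, 51 in all, gave values beside these. Of the 51, 18 were undetected on the other 7 white fat arrays, and 8 of these were detected on heterozygous array 2. Their excess was 1.44% for Bglap, 1.68% for Bglap2, 1.75% for Ibsp, 2.00% for Ckm, 1.33% for the granule protease gene Ctsg, 0.997% for the eosinophil gene Ear6, 0.513% for the red cell gene Kel and 0.581% for the myosin gene Myh4. The other 10, among them Sp7, Gata1, Epx and Prg3, were undetected on it too. Over the 18 the median excess was 0.712%, with a range of -2.34% to 6.14%. The ends of that range were Dcstamp and Ms4a1, which were low on the bone array too, at log2 levels of 5.03 and 4.95. Mpo, Ms4a3, Ngp and Retnlg, also undetected elsewhere in white fat, ran from 0.531% to 2.76%.

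Another 22 of the 51 marker genes were detected on all of the other 7 white fat arrays, as were Elane, Lcn2 and S100a8. Their excess was uneven, above 0 for 14 of the 22, with a median of 0.954% and a range of -87.7% to 32.5%. The lowest was the B cell factor gene Ebf1 and the highest the osteoclast phosphatase gene Acp5. Both were low on the bone array, at log2 levels of 5.19 and 6.29, so small differences in white fat gave large percents. Acp5 was at 6.30 on white fat heterozygous array 2 against a median of 5.88 on the other 7. S100a9, with 15.8%, was at 11.49 there against 5.00, so these percents are not alike. The granule membrane gene Cd63 stood at 12.4%, the muscle actin gene Acta1 at 9.23%, Col1a1 at -5.01% and the lysosomal gene Gusb at -11.1%. The rest of the 51 were detected on some but not all of the other 7 arrays, as were Ltf, Camp and S100a9. The excess of these marker genes ran from -1.06% for Ear10, the only one below 0, to 4.09% for the red cell gene Slc4a1. Between them lay Klf1 at 1.45% and Prg2 at 2.79%. Ltf (4.56%), Camp (5.42%) and S100a9 (15.8%) stood above that range, Ltf by a small margin. This is 1 array, so the comparison has no replicate, and percents of bright genes depend on how linear the array is. How RNA of these genes came to be in the sample was not tested.

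**Figure D5:**
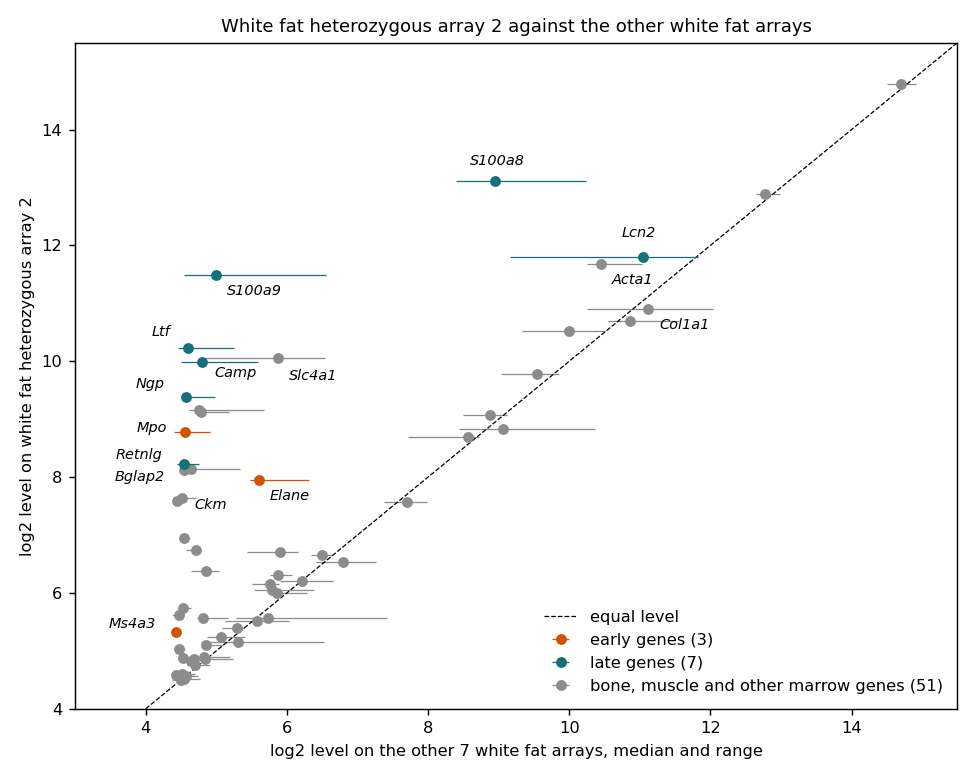
Log2 level on white fat heterozygous array 2 (y axis) against the median of the other 7 white fat arrays, with their range as a horizontal line (x axis), 24 arrays normalized together, for early genes (orange), late genes (teal) and 51 marker genes of bone, muscle and other marrow cells (grey). The 10 neutrophil genes lie above the dashed line of equal levels, while the marker genes lie on both sides of it, such as Bglap2 above (8.12) and Col1a1 below (10.89).

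Elane differed from the other early genes in white fat. Its levels were 6.55, 8.52, 6.96 and 6.86 in heterozygous white fat, against 5.99, 6.16, 6.12 and 6.09 in wild-type white fat, all detected. Mpo, Ms4a3 and Ctsg, which marrow expresses with it, were not detected on the 7 arrays other than heterozygous array 2. Prtn3, the proteinase 3 gene next to Elane on chromosome 10, was detected on all 8 white fat arrays, at 7.71 to 8.72 on the scale of all arrays, and on none of the 8 heart arrays. The next gene on the other side of Elane in RefSeq's order is Cfd, for the fat cell protease adipsin, with which no probe was paired. Whether the Elane and Prtn3 signals of white fat come from neutrophils was not tested.

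Of the 10 genes, 4 passed the filter for the genotype test in white fat, and 0 of them passed the test, where 0.0108% of all genes were called. Elane had non-overlapping groups and a higher mean in heterozygous white fat, with a log2 change of 1.14 (SE 0.356, adjusted p = 0.0858 in limma), where 8.94% of all genes had such groups. Without heterozygous array 2 the change was 0.71 (SE 0.141, adjusted p = 0.115), and with no background correction it was 0.51 (adjusted p = 0.127, both limma). Prtn3 changed by 0.43 (SE 0.165, adjusted p = 0.124), also with groups that did not overlap.

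S100a9 levels were 5.45, 11.92, 7.21 and 6.82 in heterozygous white fat, against 4.66, 5.34, 5.00 and 4.91 in wild-type white fat. It was detected on 3 of the 4 heterozygous and 1 of the 4 wild-type arrays. The log2 change was 2.87 (SE 1.10, adjusted p = 0.123 in limma), and 1.5 with no background correction (adjusted p = 0.232), so its size depends on how values near background are treated. Without heterozygous array 2 the gene no longer passed the filter. It passed through the heterozygous arrays on which it was detected, so its direction is a description only.

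S100a8 did not follow its partner in white fat. Its levels were 8.96, 13.40, 9.45 and 8.95 in heterozygous white fat, against 10.71, 10.69, 9.62 and 8.98 in wild-type white fat. The groups overlapped (log2 change 0.19, adjusted p = 0.906), and without heterozygous array 2 the change was -0.88 (adjusted p = 0.203, both limma). Lcn2 levels were 11.55, 12.18, 11.52 and 12.08 in heterozygous white fat, against 9.65, 11.22, 11.41 and 12.21 in wild-type white fat (log2 change 0.71, adjusted p = 0.302). With wild-type array 1 left out the Lcn2 change was 0.22, and with wild-type array 4 left out it was 1.07. Wild-type white fat spread more widely than heterozygous white fat in Lcn2.

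Raw signal averaged 553 to 666 on heterozygous arrays and 702 to 820 on wild-type arrays of white fat, so brightness and genotype cannot be told apart in this tissue. The macrophage and monocyte list, with 9 of 12 genes measured, averaged 10.16 to 10.36 in heterozygous and 10.49 to 11.01 in wild-type white fat. The mature neutrophil list did not share the direction of Elane and S100a9: 16 of its 18 measured genes had changes below 0, where 45.1% of all genes in white fat did, with a median of -0.50 against 0.03 over all genes. Many of its genes are also expressed by macrophages.

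In heart, calprotectin genes and Lcn2 were present on every array and early genes were nearly absent. The genes detected numbered 5, 5, 4 and 6 of 10 on heterozygous arrays 1 to 4, against 4, 3, 4 and 5 on wild-type arrays 1 to 4. Mpo and Ms4a3 were detected on none of the 8 heart arrays and Elane on 2, both heterozygous.

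S100a8 levels were 7.68, 7.61, 6.32 and 9.73 in heterozygous heart, against 6.09, 5.85, 5.34 and 7.24 in wild-type heart. S100a9 levels were 6.63, 7.00, 5.27 and 8.56 in heterozygous heart, against 5.45, 5.48, 4.88 and 6.59 in wild-type heart. In both genes the highest array of each genotype was array 4 and the lowest array 3, and the groups overlapped. The log2 change was 1.71 for S100a8 (SE 0.680) and 1.27 for S100a9 (SE 0.645), with an adjusted p = 0.608 for both in limma. With no background correction the changes were 0.95 and 0.58. No gene of heart passed the test (0 of 8535 in limma, 0%), while 472 had an unadjusted p under 0.05. S100a8 was 1 of these 472, where 1.71% of all genes had such a p with the higher mean in heterozygous heart.

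Lcn2 levels were 6.58, 6.17, 5.56 and 8.17 in heterozygous heart, against 5.92, 5.79, 5.84 and 7.21 in wild-type heart (log2 change 0.43, adjusted p = 0.697 in limma). The 2 arrays numbered 4 were again the highest. Ltf, the fourth gene that passed the filter, changed by 0.05 and was detected on 2 heterozygous and 3 wild-type arrays. Its sign turned without heterozygous array 2 or 4 or wild-type array 2.

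Heart heterozygous array 4 had the highest heart level for 5 of the 10 genes. Retnlg was at 6.83 there and at 4.33 to 4.87 on the other 7 heart arrays. No early gene was detected on this array, and Bglap2 was detected on no heart array, unlike on white fat heterozygous array 2. Of 1003 probes seen on all bone arrays and undetected on the other 7 hearts, 14 (1.40%) were seen on this one, while the same count was 1 to 9 on each of the other hearts. The 2 measured genes of the osteoblast list (of 9) averaged 9.65 on this array, 8.78 to 9.00 on the other heterozygous hearts and 6.79 to 8.88 on wild-type hearts. One of the pair is Col1a1, which was detected on every heart and every white fat array, so this mean does not mark bone. Bglap and Ibsp of that list were detected on no heart array. The macrophage and monocyte list, with 8 of 12 genes measured, averaged 9.20 on this array, 8.60 to 8.68 on the other heterozygous hearts and 7.89 to 8.72 on wild-type hearts. The specific and gelatinase granule list averaged 7.88 on it, 7.23 to 7.30 on the other heterozygous hearts and 6.82 to 7.26 on wild-type hearts. Without this array the log2 change was 1.08 for S100a8, 0.70 for S100a9 and -0.09 for Lcn2. With wild-type array 4 left out instead, the changes were 2.04, 1.60 and 0.75 for these genes. Raw signal averaged 433 to 477 on heterozygous arrays and 368 to 421 on wild-type arrays of heart, and wild-type array 4 detected the fewest probes, 9931.

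Whether the genotype effect of a gene differed between bone and white fat was tested for the 4 genes measured in both. The effect in bone minus that in white fat was -0.58 for Elane (SE 0.429, adjusted p = 0.368), -2.56 for S100a9 (SE 1.21, adjusted p = 0.155), -0.31 for Lcn2 (SE 0.535, adjusted p = 0.721) and -0.13 for S100a8 (SE 1.03, adjusted p = 0.944, all limma). None of the 4 passed, where 12.4% of all genes did. S100a9 passed the white fat filter through the heterozygous arrays on which it was detected, so its difference is a description only. Without white fat heterozygous array 2 it no longer passed that filter. The difference was then 1.00 for S100a8 (adjusted p = 0.12 in limma) and -0.13 for Elane. A run without the arrays of the shared mouse number gave -0.50 for Elane, -0.17 for Lcn2 and -0.43 for S100a8. Their adjusted p was 0.514, 0.876 and 0.831 in limma.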

How the data were processed

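Total RNA of 24 tissue samples was amplified to biotinylated cRNA and hybridised to Illumina mouse bead arrays, and GenomeStudio 2011.1 was used, per the submitters' processing notes. The authors deposited raw intensity values and a table of background-subtracted, scaled intensities, in which each value has its own detection p-value. The notes and file headers do not state how that table was scaled. The values themselves showed which set is raw.

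Raw intensities were background-corrected with normexp from the detection p-values (offset 16), quantile-normalized by tissue and taken to log2 (limma 3.58.1, R 4.3.3). Probes were kept with a detection p-value under 0.05 in at least 4 of 8 arrays, and the brightest kept probe stood for a gene. Of 25697 probes, 23978 had 1 gene symbol, 0 several and 1719 none.

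Genotypes were compared within each tissue by limma's moderated test with a variance trend and Benjamini-Hochberg adjustment over all genes. Changes are heterozygous minus wild-type. The difference between bone and white fat had the animal as a block (statmod 1.5.0). Blocks were mouse numbers, so the number that stands under both genotypes counted as 1 animal. The consensus correlation within a block was -0.049. Levels across tissues came from the 24 arrays normalized together. The number of arrays limits the precision.

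The 10 genes, the lists and the tests were chosen with earlier results of these data known. The rule for named genes took all 10 genes with every probe and up to 4 genes of smallest p in each neutrophil list. It also took the 5 genes that most closely followed the mean of the early genes in bone, and the 5 for the late genes. Marker genes of other cells were named beside them after their values were seen. The alternatives were other background, scaling, filter, probe, weight and block choices, and each array left out in turn. The genotype fit in bone was tested on simulated data, and the other fits were not. A chip block was not run, since chips are not named in the files. Nothing says that mice were independent beyond their numbers, so p-values measure the spread between these samples.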

Additional observations from a re-analysis of the deposited data

Results flagged for a closer look

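Each gene, tissue and genotype gave a group of 4 arrays, 60 in all. By Dixon's ratio 11 of the 60 held an array that stood far from the other 3. Chance marks about 5% of independent groups. These groups share arrays between genes, so that rate does not give an expected count for the 60. White fat heterozygous array 2 accounts for 5 of the 11, with high log2 levels of Mpo (9.28), Ms4a3 (5.80), Ngp (9.87), S100a8 (13.4) and Retnlg (8.78). In heart, heterozygous array 4 was high in Retnlg (6.83) and low in Ms4a3 (4.30, not detected), heterozygous array 2 was high in Camp (5.52), and wild-type array 4 was high in Lcn2 (7.21). In bone, heterozygous array 4 was low in Elane (13.1) and heterozygous array 1 was high in S100a8 (14.8).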

How the results depend on the processing

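With each bone array left out in turn, the count of genes past the threshold ran from 0 to 804 (7 with all arrays), members past it from 0 to 5 (0 with all arrays) and the early minus late median from 0.21 to 0.52. Leaving out wild-type array 3 gave the 804, and leaving out wild-type array 4 gave 3. In white fat the count ran from 0 to 1148 (1 with all arrays), with 850 when wild-type array 3 was left out and 1148 when array 4 was, and in heart from 0 to 1. Without both arrays of the shared mouse number, bone had 743 genes, 5 of the 10 members and an early minus late median of 0.57, and white fat had 0 genes. Array weights gave 541 genes and 3 members in bone and 1653 genes in white fat.

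The replicate block gave 2 genes in bone, 1306 (14.1% of all genes) in white fat and 0 in heart. In white fat Elane was among them (adjusted p = 0.0354 in limma), and so was S100a9 (0.0459 in limma). S100a9 passed the filter through the heterozygous arrays on which it was detected, so its call is a description only. Same-numbered arrays correlated in their deviations by -0.09 to 0.06 in bone and -0.18 to 0.27 in heart. In white fat they did by 0.39, 0.15, -0.05 and 0.40 for numbers 1 to 4, with arrays 1, 2 and 4 closest to their own number, a hint from the data and not from the design. Since number 3 was not, the numbers were not taken as pairs. In bone the count was 14 with no background correction, 12 with an offset of 50, 11 under median scaling, 3 with no filter, 2 over all probes, 14 with the authors' intensities, 0 with no variance trend, 0 with brightness as a covariate and 1 with the mean of all probes, which was chosen after seeing the data and which gave a median of 0.39 over the 10 genes. In white fat the count was 742 under median scaling, 8 with 24 arrays together, 162 with detection p under 0.01 in all 8 arrays, 0 with no variance trend and 0 with brightness as a covariate.

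Signs turned in these cases. In bone, Mpo was 0.010 under cyclic loess, 0.060 under median scaling and 0.41 with the mean of its probes. Ltf was -0.013 under cyclic loess and -0.10 with the authors' intensities, and S100a8 was -0.026 with these. S100a9 was -0.0016 with the authors' intensities, -0.021 with array weights and -0.015 without both shared arrays, and with 1 array left out it ran from -0.032 (heterozygous array 3) to 0.025, with -0.029 without wild-type array 3. In white fat, Lcn2 was -0.046 with brightness as a covariate, and S100a8 with 1 array left out ran from -0.88 (heterozygous array 2) to 0.60, with -0.15 without wild-type array 4. In heart, Ltf was -0.013 with 24 arrays together and ran from -0.10 (heterozygous array 2) to 0.22 with 1 array left out, below 0 also without heterozygous array 4 or wild-type array 2. Lcn2 ran there from -0.086 (heterozygous array 4) to 0.78. The S100a8 difference between bone and white fat was 1.00 without white fat heterozygous array 2. The causes were not tested. Over all settings tried, Ms4a3 (0.56 to 0.99), Retnlg (0.46 to 0.68), Elane (0.30 to 0.67), Lcn2 (0.26 to 0.65) and Ngp (0.23 to 0.53) kept higher means in heterozygous bone.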
